A study of Drosophila melanogaster with 63 samples.

Results

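The 8 genes described here make, store, break down and move the carbohydrate reserves of the fly: Pgm1, UGP, Glys, AGBE and GlyP of glycogen, and Tps1, Treh and Tret1-1 of trehalose. They were chosen by symbol, with earlier results of these data known, and all 8 were measured among the 9212 genes of the spotted arrays. Arrays of 2 dye channels set a treated RNA against a control RNA of OregonR wild-type Drosophila melanogaster kept at 25 °C, on 63 arrays in 12 groups of 4 to 6. Adults held without food on buffer (starved) were females at 24 h (6 arrays) and 48 h (5) and males at 24 h (6). Adults held on buffer with 20% sucrose (sugar) were females at 24 h (5) and 48 h (6) and males at 24 h (6) and 48 h (4). The control of each adult group was the same sex on yeast paste, so both diets lack yeast. Larvae on yeasted apple juice agar were 52, 64, 76, 88 or 100 h old, counted from egg laying (6, 5, 6, 4 and 4 arrays), each set against larvae of 40 h. The labels name no tissue and no age of the adults.

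Glycogen is the branched glucose store of animal cells. Phosphoglucomutase (Pgm1) turns glucose 6-phosphate into glucose 1-phosphate, UTP-glucose-1-phosphate uridylyltransferase (UGP) makes UDP-glucose from it, glycogen synthase (Glys) adds the glucose to a growing chain, and the branching enzyme (AGBE) sets the branches. Glycogen phosphorylase (GlyP) releases glucose 1-phosphate again. In insects the fat body also builds trehalose, the main sugar of the circulating haemolymph, through trehalose 6-phosphate synthase (Tps1). Tret1-1 carries trehalose across the cell membrane and Treh, trehalase, splits it into glucose.

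The values are log2 ratios that the authors merged over all arrays of a group, so every array of a group carries the same number. Each gene thus has 1 measurement in a group, without replicate spread, p-value or replicate check of any difference. Different clones of the same gene give a technical yardstick, the 95th percentile of the difference between both clones over the genes with exactly 2. It ranged from 0.36 in males without food to 0.78 in sugar-fed females at 48 h, and from 0.62 at 52 h to 1.09 at 100 h in larvae, without any share of how animals vary. A difference between 2 groups was set against the larger of their yardsticks. The yardstick measures how clones disagree within a group, not the spread of a difference between groups, so it is only a rough scale. The share of all genes beyond it was not counted. The median over all genes lay between -0.03 and 0.02 in each group. Of the 8 genes, 6 rest on 1 clone, Tret1-1 on 2 and Treh on 3. No label gives the sign of a ratio, which is likely treated over control: Lsp2 and Fbp2, fat body genes of late larvae, stood at 8.52 and 7.85 at 88 h, and eggshell genes were far below 0 in females without yeast and near 0 in males. Lsp2 was also at -4.59 to -7.25 in adults, where Fbp2 was at -0.21 to 0.07. Were the sign the other way, every direction below would turn. Ratios give no level, so an expressed gene that did not move and a silent gene cannot be told apart. In such bulk RNA, fewer cells of a type and less RNA per cell cannot be told apart either.

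The 5 glycogen genes were mostly below the yeast-fed control in adults, in 32 of 35 values, while the trehalose genes were above it in 14 of 21. Of these 14 values, 5 were of Tps1, 4 of Treh and 5 of Tret1-1. Those of Treh and Tret1-1 were at most 0.34, less than the smallest adult yardstick of 0.36. The second clone of Tret1-1 was below 0 in every adult group. The share of all genes above or below the control was not counted. Counting genes at least 2-fold from the control, 12 of the 56 adult values of all 8 genes were lower and 1 higher, and all 12 low values belonged to glycogen genes. Males on sugar at 48 h held the most, 5 of 8 (all the glycogen genes), where 1.83% of all genes were that low. Males on sugar at 24 h held 3 of 8 (AGBE, Glys and UGP) against 1.13% of all genes. Starved males held 2 of 8 (AGBE and Glys) against 0.566%. In females AGBE was the gene so low, after 24 h of starvation (1 of 8, against 0.893% of all genes) and after 24 h of sugar (1 of 8, against 1.12%). At 48 h none of the 8 was 2-fold lower in females without food or in sugar-fed females, where 0.727% and 1.26% of all genes were. The single high adult value was Tps1 in sugar-fed females at 48 h (1 of 8, against 1.7% of all genes). No gene of the 8 was 2-fold higher in the remaining adult groups, where 0.283% and 1.24% of all genes were so in females without food at 24 and 48 h, 0.0218% in males without food, 0.391% in sugar-fed females at 24 h, and 0.109% and 0.206% in sugar-fed males at 24 and 48 h.

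**Figure D1:**
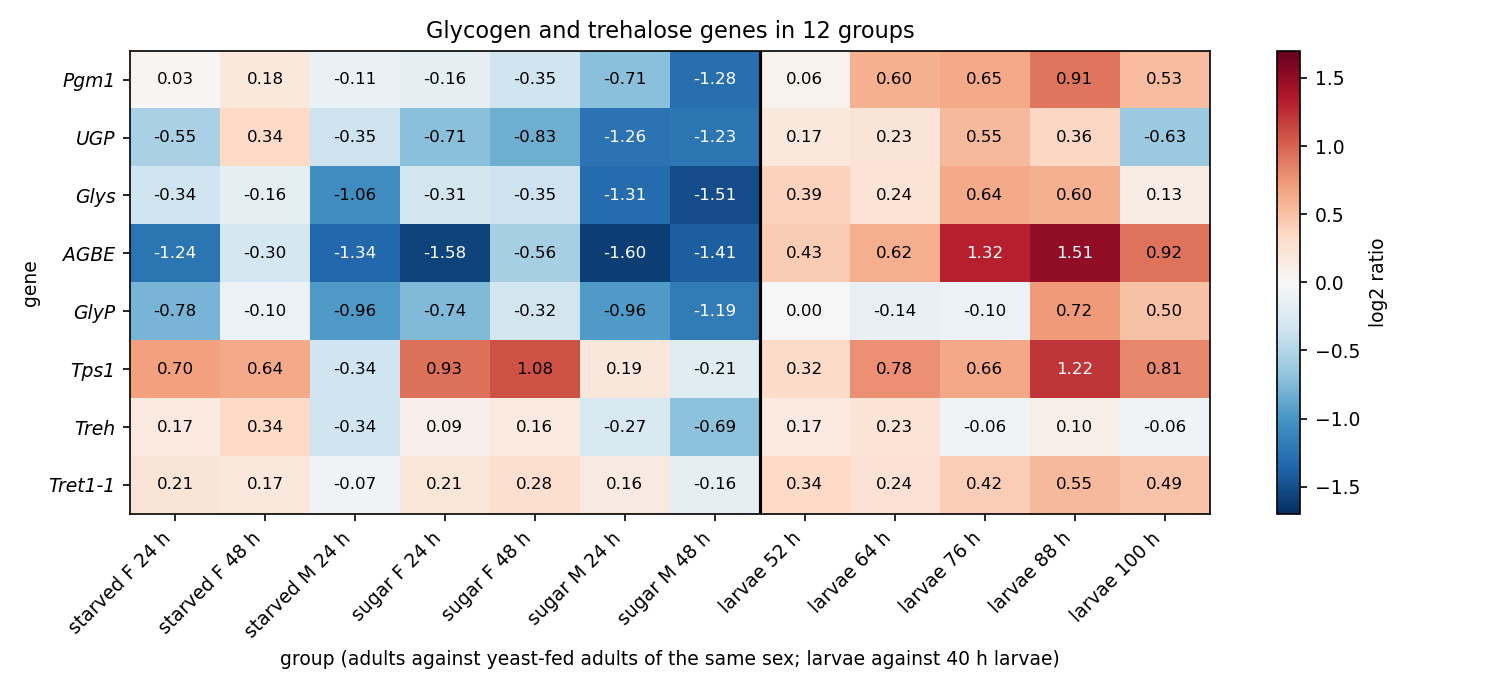
Log2 ratios of the 8 genes (rows) in the 12 groups (columns), with adult groups left of the line and larval ages right of it; F is females, M is males, and each cell is 1 merged value. AGBE is lowest at -1.60 in sugar-fed males at 24 h and highest at 1.51 in larvae of 88 h, and Tps1 stands out among the adult females, at 0.64 to 1.08.

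AGBE, the branching enzyme, was below the control in all 7 adult groups. It was at -1.24 and -0.30 in females starved for 24 and 48 h and at -1.34 in males without food. On sugar it was at -1.58 and -0.56 in females and at -1.60 and -1.41 in males, at 24 and 48 h. The lowest of these is 3.04-fold below yeast-fed males, and only 0.337% of all genes lay lower in that group. Both 48 h female groups were less than 2-fold from the control and the other 5 adult groups more. The nearest values across this divide, sugar-fed females at 48 h and females without food at 24 h, lay 0.68 apart. That gap is inside the yardstick of 0.78. Within the same diet, female ratios at 48 h lay above those at 24 h by 0.94 without food and 1.02 on sugar. These differences are beyond the yardsticks of 0.74 and 0.78.

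Glys, which extends the chain, separated the sexes. It was at -0.34 and -0.16 in females without food (24 and 48 h) and at -1.06 in males without food. Females on sugar were at -0.31 and -0.35, and sugar-fed males at -1.31 and -1.51. All 3 male groups thus lay at least 2-fold below the control, and no female group lay more than 1.27-fold below it.

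GlyP, the enzyme of breakdown, was below the control in each adult group, and at least 2-fold so in sugar-fed males at 48 h. It was at -0.78 in females without food at 24 h, -0.10 in females without food at 48 h and -0.96 in males without food. On sugar it was at -0.74 and -0.32 in females and at -0.96 and -1.19 in males. Males at 24 h thus had nearly the same ratio without food as on sugar, 1.94-fold and 1.95-fold below yeast.

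UGP, which makes the sugar donor, was lower on sugar than in starvation. In starved flies it was at -0.55 and 0.34 in females at 24 and 48 h and at -0.35 in males. On sugar it was at -0.71 and -0.83 in females and at -1.26 and -1.23 in males. PGRP-LF, a peptidoglycan recognition protein gene that overlaps UGP in the RefSeq annotation, had other values (0.83 in females without food at 48 h and -0.33 in sugar-fed males at 24 h), while CG32040, which also overlaps it, was not analysed here.

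Pgm1, at the entry to glycogen, was near the control in starvation and low in sugar-fed males. It was at 0.03 and 0.18 in females without food and at -0.11 in males without food. On sugar it was at -0.16 and -0.35 in females and at -0.71 and -1.28 in males. Its value in sugar-fed males at 48 h was 2.42-fold below yeast.

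Tps1, which makes trehalose, was above the control in every female group. It was at 0.70 and 0.64 in females without food at 24 and 48 h, and at 0.93 and 1.08 in sugar-fed females. Males were at -0.34 in starvation and at 0.19 and -0.21 on sugar. Of all genes, 99% lay lower than Tps1 in females without food at 24 h and 99.4% in sugar-fed females at 24 h.

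Treh and Tret1-1, the trehalose-splitting enzyme and the transporter, stayed less than 2-fold from the control everywhere by the median over their clones. Treh was at 0.17 and 0.34 in females without food, -0.34 in males without food, 0.09 and 0.16 in sugar-fed females, and -0.27 and -0.69 in sugar-fed males. Its low value in sugar-fed males at 48 h comes from clones at -0.73 and -0.69, and the other clone was at -0.02. At 24 h of sugar in males that clone was at 0.17, against -0.27 and -0.40. Tret1-1 was at 0.21 and 0.17 in females without food, -0.07 in males without food, 0.21 and 0.28 in sugar-fed females, and 0.16 and -0.16 in sugar-fed males.

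The clones of Tret1-1 did not behave alike. Its first clone lay at 0.51 and 0.57 in females without food, 0.60 and 0.75 in sugar-fed females, and 1.14 and 1.11 in larvae of 88 and 100 h. The second lay at -0.08, -0.22, -0.18, -0.19, -0.03 and -0.13 in those groups. Their distance of 1.25 at 100 h and 0.94 in sugar-fed females at 48 h is beyond the yardstick of 1.09 and 0.78. It was also beyond the yardstick in females without food at 24 and 48 h, sugar-fed females and males at 24 h, and larvae of 52 and 88 h. The distance was inside it in males without food, sugar-fed males at 48 h, and larvae of 64 and 76 h. The Tret1-1 ratio thus depends on the clone. Its neighbour Tret1-2, a related transporter gene, was at 0.03 and -0.27 in females without food, -0.55 in males without food, and 0.83 and 0.95 in larvae of 88 and 100 h. In the annotation Tret1-1 overlaps Roc2, Pgm1 overlaps Strump, Tps1 overlaps CG3652 and Treh overlaps Rbpn-5, while AGBE, Glys and GlyP overlap no gene. Which strand or transcript a clone detects is not given in the sources used here.

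**Figure D2:**
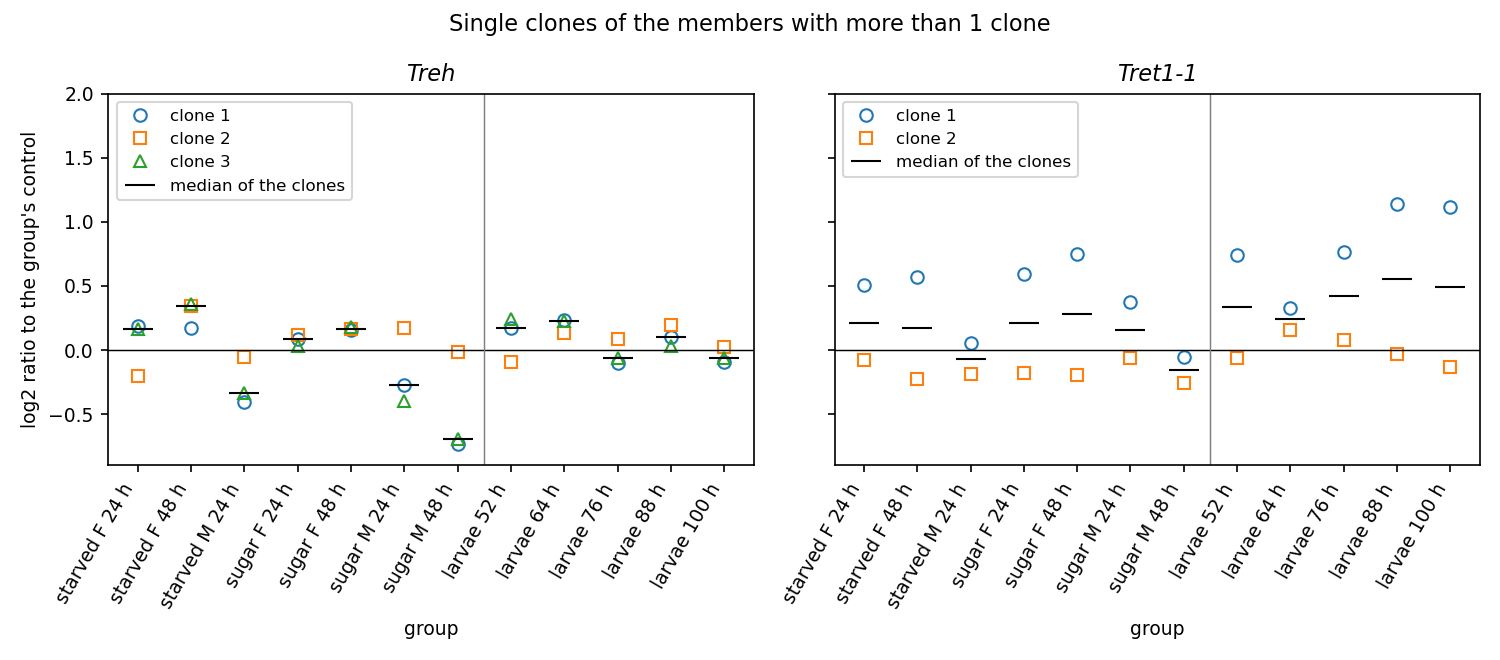
Log2 ratio to the control of each group (y axis) for the single clones of Treh and Tret1-1 (symbols) in the 12 groups (x axis), with the median over clones as a bar. Clone 2 of Treh, at -0.02, stands above the others (-0.73 and -0.69) in sugar-fed males at 48 h, and the clones of Tret1-1 lie 1.25 apart at 100 h.

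The ratios of the same treatment were set against each other between the sexes, since the title of the series names metabolism specific to sex. After 24 h of starvation the female ratio was above the male ratio in 7 of 8 genes, with a median difference of 0.23. Tps1 was 1.04 apart (0.70 in females and -0.34 in males) and Glys 0.72 (-0.34 in females and -1.06 in males). Both are beyond the yardstick of 0.54, and Tps1 is the 1 of 8 at least 2-fold above, as 0.425% of all genes were. Of all genes, 99.6% had a lower difference than Tps1 and 98.7% a lower one than Glys. AGBE differed by 0.10 (-1.24 in females and -1.34 in males) and GlyP by 0.17, both inside the yardstick.

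On sugar the female ratio was above the male ratio in all 8 genes at both times. The median difference was 0.46 at 24 h and 0.86 at 48 h. At 24 h, Glys (0.99), Tps1 (0.74), UGP and Pgm1 (0.55 each) were beyond the yardstick of 0.50, and AGBE (0.03) and Tret1-1 (0.05) were close to 0. The smallest difference beyond the yardstick was that of Pgm1, and 97.2% of all genes had a lower difference. No gene of the 8 was 2-fold above at 24 h, as 0.315% of all genes were. At 48 h, 6 of 8 were beyond the yardstick of 0.78: Tps1 (1.29), Glys (1.17), Pgm1 (0.93), GlyP (0.88), AGBE (0.85) and Treh (0.85). Of all genes, 95.9% had a lower difference than AGBE, the smallest of these 6. Tps1 and Glys were at least 2-fold above, 2 of 8 against 2.57% of all genes.

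Lists of tissue genes differed between the sexes too. Of the genes listed, 15 of 19 were measured for eggshell and yolk and 12 of 20 for muscle. For gut enzymes 16 of 19 were measured, and for fat body 6 of 11. The 15 eggshell and yolk genes had medians of -2.24 and -2.82 in females without food and -0.08 in males without food, -2.80 and -2.79 in sugar-fed females, and -0.01 and 0.13 in sugar-fed males. The 12 muscle genes had medians of 0.40 and 0.93 in females without food and 0.04 in males without food, 0.51 and 0.91 in sugar-fed females, and -0.04 and -0.07 in sugar-fed males. Female ratios of muscle genes lay above male ratios by a median of 0.49 in starvation and 0.55 and 1.02 on sugar, in 12 of 12 genes each time. These medians are above those of the 8 genes in all 3 comparisons. The 16 gut enzyme genes had medians of -0.71 in males without food and -0.38 and -1.90 in sugar-fed males, with 9 of 16 at least 2-fold lower at 48 h, where 1.83% of all genes were. The other adult groups also held such genes: 5 and 2 of 16 in females without food (0.893% and 0.727% of all genes), 5 in males without food (0.566%), 5 and 6 in sugar-fed females (1.12% and 1.26%) and 7 in sugar-fed males at 24 h (1.13%). At least 2-fold higher were 2 and 4 of 16 in females without food (0.283% and 1.24% of all genes). In sugar-fed females 1 and 5 were so (0.391% and 1.7%), and in males none (0.0218% to 0.206%). In females the gut enzyme medians were -0.14 and 0.09 in starvation and -0.34 and -0.51 on sugar. Female ratios of these genes lay above male ratios by a median of 0.65 in starvation and 0.11 and 1.10 on sugar. The 6 fat body genes had medians of -0.07 and -0.24 in females without food, -0.51 in males without food, -0.12 and -0.02 in sugar-fed females, and -0.07 and -0.56 in sugar-fed males. These fat body medians cover genes that went opposite ways. In every adult group Lsp2 was the lowest of the list and Apoltp the highest. In females without food at 48 h they were at -7.25 and 1.95. The part of these tissues in the ratios of the 8 genes was not tested.

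**Figure D3:**
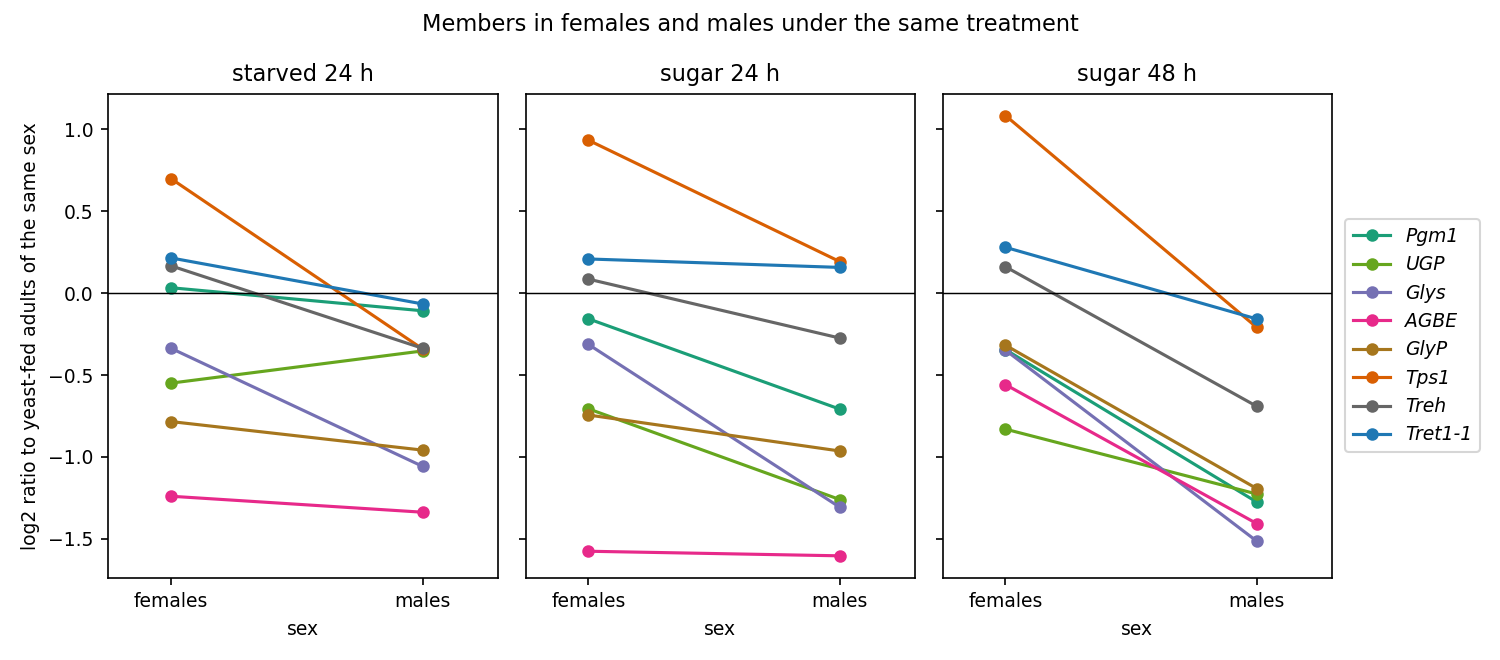
Log2 ratio to yeast-fed adults of the same sex (y axis) in females and males (x axis) for the 8 genes (colours), in starvation at 24 h and on sugar at 24 and 48 h. Nearly all lines slope down to the males; UGP in starvation slopes up, from a female ratio of -0.55 with the male ratio at -0.35.

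Starvation and sugar differed least in females at 24 h, where no gene of the 8 was beyond the yardstick of 0.54 and the differences ran from -0.24 for Tps1 to 0.34 for AGBE. None was 2-fold apart, as 0.0653% of all genes were above and 0.0545% below. At 48 h females without food were above sugar-fed females in UGP by 1.17 (0.34 in starvation and -0.83 on sugar). It was the 1 of 8 genes at least 2-fold above, as 0.793% of all genes were, and none was 2-fold below (0.141%). Pgm1 lay 0.52 above and Tps1 0.44 below, both inside the yardstick of 0.78. Males at 24 h had the same order: UGP was higher in starvation than on sugar by 0.91 and Pgm1 by 0.60, and Tps1 lower by -0.53, all beyond the yardstick of 0.37. Of all genes in males, 99.7% had a lower difference than UGP, 99.1% than Pgm1 and 0.957% than Tps1. None of the 8 was 2-fold apart in males (0.196% of all genes were above and 0.37% below). AGBE, Glys and GlyP differed by 0.27, 0.25 and 0.01. Whether starved flies and flies on sugar were set against the same yeast-fed RNA is not given in the labels.

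Between 24 and 48 h AGBE in females differed most of the 8 genes. At 48 h its ratio was above 24 h by 0.94 in females without food (-0.30 at 48 h and -1.24 at 24 h) and by 1.02 in sugar-fed females (-0.56 at 48 h and -1.58 at 24 h). Both are beyond the yardsticks, of 0.74 and 0.78, and 99.2% and 99.6% of all genes had a lower difference. In sugar-fed males the AGBE difference was 0.20, inside the yardstick of 0.50. UGP was 0.89 above its 24 h value in females without food, beyond the yardstick, and differed by -0.12 in sugar-fed females, inside it. At least 2-fold above were none of the 8 genes in females without food (0.632% of all genes) and AGBE alone, 1 of 8, in sugar-fed females (0.413%). Males on sugar were lower at 48 h than at 24 h in 6 of 8 genes. Pgm1, by -0.57, was the only one of them beyond the yardstick of 0.50, and none of the 8 was 2-fold below (0.337% of all genes). Of all genes, 1.3% had a lower difference than Pgm1.

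In larvae 34 of 40 values of the 8 genes were above those at 40 h. The median over the 8 was 0.25, 0.24, 0.59, 0.66 and 0.49 from 52 to 100 h, with medians over all genes between -0.03 and 0.02. At least 2-fold higher were AGBE at 76 h (1 of 8, against 2.07% of all genes) and AGBE and Tps1 at 88 h (2 of 8, against 3.22%). No gene was so at 52, 64 or 100 h (0.478%, 0.999% and 4.97% of all genes). None was 2-fold lower at any age, where 1.8%, 0.185%, 2.81%, 4.23% and 6.77% of all genes were.

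AGBE was at 0.43, 0.62, 1.32, 1.51 and 0.92 from 52 to 100 h. Pgm1 was at 0.06, 0.60, 0.65, 0.91 and 0.53, and Glys at 0.39, 0.24, 0.64, 0.60 and 0.13. AGBE and Pgm1 thus stood highest at 88 h, and Glys at 76 and 88 h. UGP was at 0.17, 0.23, 0.55 and 0.36 up to 88 h and at -0.63 at 100 h, the lowest larval value of the 8 genes. GlyP was at -0.0013, -0.14 and -0.10 up to 76 h, and at 0.72 and 0.50 at 88 and 100 h. The breakdown enzyme was thus near the control up to 76 h, and its step of 0.82 between 76 and 88 h is inside the yardstick of 0.91.

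Tps1 was at 0.32, 0.78, 0.66, 1.22 and 0.81. Tret1-1 was at 0.34, 0.24, 0.42, 0.55 and 0.49, carried by its first clone. Treh stayed between -0.06 and 0.23. From 88 to 100 h all 8 genes were lower, by a median of -0.39, from -0.07 for Tret1-1 to -0.98 for UGP. No step of any gene between successive ages was beyond the yardstick of the ages compared, and none of the 8 was 2-fold apart at a step. Over the steps in order of age, 1.79%, 0.684%, 0.695% and 1.22% of all genes were 2-fold above and 0.304%, 2.05%, 0.163% and 2.11% below. In the same larvae the 6 fat body genes had medians of 0.82, 0.58, 1.26, 1.83 and 2.15. The fat body list was not uniform: at 100 h it ran from -1.66 for Apoltp to 8.26 for Lsp2. Apoltp was below the control at each larval age. The 16 gut enzyme genes had medians of 0.20, 0.72, 1.06, 1.57 and 1.02. The part of these tissues in the larval ratios was not tested.

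**Figure D4:**
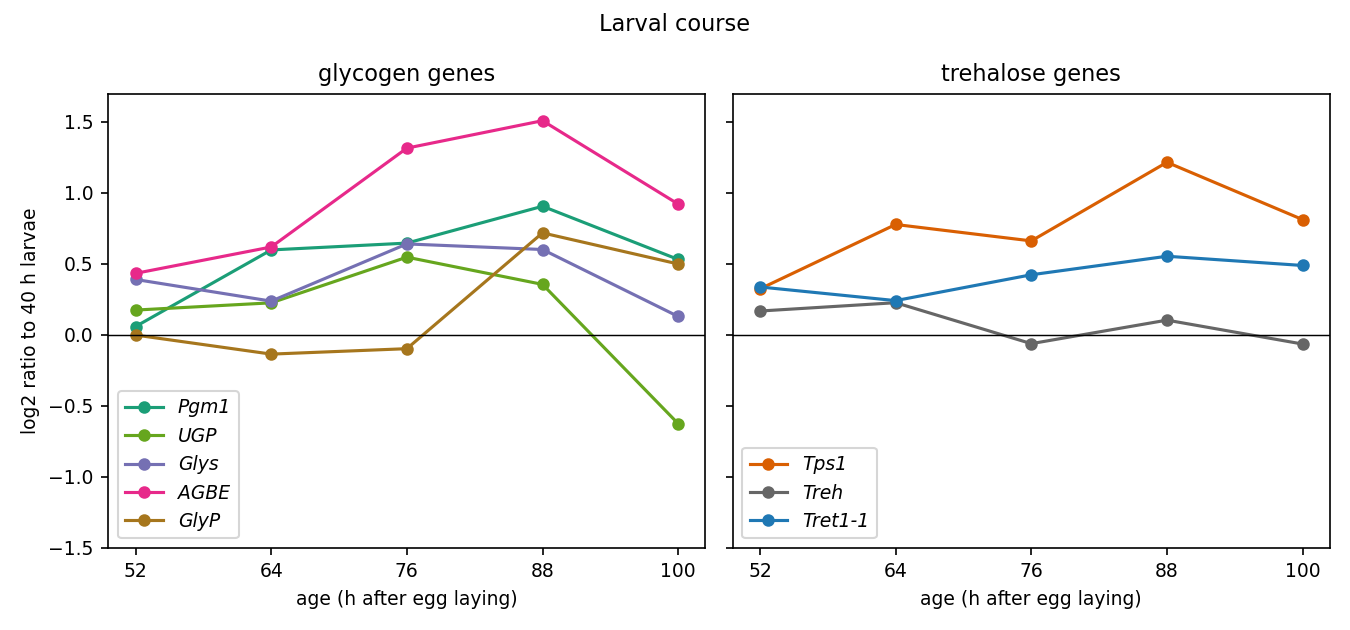
Log2 ratio to larvae of 40 h (y axis) against age in hours after egg laying (x axis) for the glycogen genes (left) and the trehalose genes (right); each point is 1 merged value. AGBE and Tps1 reach 1.51 and 1.22 at 88 h, UGP ends at -0.63 at 100 h, and all 8 genes are lower at 100 h than at 88 h.

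Ordered by ratio, neighbouring adult groups of a gene differed by more than the yardstick in 1 of 48 cases. This was Pgm1, whose lowest group, sugar-fed males at 48 h, lay 0.57 below its next, sugar-fed males at 24 h. None of the 32 pairs of neighbours in larvae was beyond it. Sorting puts close values side by side, so few gaps beyond the yardstick were likely in advance. The exact order of neighbouring groups is thus not read as a result. A group of sugar-fed males was lowest among the adults for 7 of the 8 genes, all but Tps1.

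Likeness between the 8 genes over the groups is given as a description. Pearson's r over the 12 merged values, which share controls among larvae and possibly among adults and span the offset between adults and larvae, was 0.65 to 0.91 in the 10 pairs of glycogen genes, highest for AGBE with GlyP, and 0.60 to 0.80 in the 3 pairs of trehalose genes. It was 0.34 to 0.89 in the 15 pairs of both kinds, lowest for UGP with Tps1. Over the 7 adult groups alone the ranges were 0.45 to 0.89, 0.85 to 0.92 and 0.20 to 0.96. The highest of these was Glys with Treh, a pair of both kinds.

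The genes most like each of the 8 over the 12 groups were taken by r among 2819 genes with a range of at least 1. For AGBE they were CG10516 (0.97), Jheh2, a juvenile hormone epoxide hydrolase gene (0.96), and CG8087 (0.96), and for Glys CG9547 (0.97), CG18547 (0.96) and ATPCL, ATP citrate lyase (0.96). GlyP was nearest to Peritrophin-15a (0.96), CG13659 (0.95) and the mannosidase gene LManII (0.95). UGP was nearest to the maltase gene Mal-A3 (0.96), CG6908 (0.95) and alpha-Est5 (0.95), and Pgm1 to LManV (0.96), Miox, myo-inositol oxygenase (0.95), and Mal-A7 (0.95). Tps1 had the weakest first match, the trypsin gene iotaTry (0.92), before fau (0.89) and CG5246 (0.88). Treh was nearest to CG9394 (0.93), CG16986 (0.90) and Alp5 (0.90), and Tret1-1 to the protease genes thetaTry (0.96), Jon99Fi (0.96) and Ser8 (0.93). Both thetaTry and Jon99Fi are also in the gut enzyme list. None of the 8 was among the nearest 3 of another, but Tret1-1, with a range of 0.71, could not be. The matches of Tret1-1 itself rest on the median of clones that did not behave alike. Being the highest of 2819, the r values of all matches are high partly by choice. Over the 7 adult groups alone, r of the named matches ran from 0.75 (AGBE with Jheh2) to 0.99 (Treh with CG9394).

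Of 37 related genes listed, in glycogen handling, hexose phosphates, trehalose and its transport, UDP-sugars and hormones, 28 were measured. Their median lay between -0.07 and 0.24 in every group, against -1.21 to 0.66 for the 8 genes. At least 2-fold lower was 1 in males without food, where 0.566% of all genes were. Sugar-fed females had 2 at 24 h and 2 at 48 h, against 1.12% and 1.26% of all genes. Sugar-fed males had 4 and 5, against 1.13% and 1.83%, and females without food had none (0.893% and 0.727%). At least 2-fold higher were 1 and 3 in females without food at 24 and 48 h, against 0.283% and 1.24% of all genes, and 2 in sugar-fed females at 48 h, against 1.7%. None was so in sugar-fed females at 24 h (0.391%) or in males (0.0218% to 0.206%). Across larval ages from 52 to 100 h, 0, 2, 1, 1 and 3 were higher, where 0.478%, 0.999%, 2.07%, 3.22% and 4.97% of all genes were. At 100 h 1 was lower, against 6.77% of all genes. For 28 genes, 1 higher at 88 h is near that share and 1 lower at 100 h is under it.

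Galk, galactokinase of the galactose route into UDP-sugars, was the lowest of them in sugar-fed males, at -1.88 and -2.23 at 24 and 48 h. It was at -1.23 and -1.06 in sugar-fed females, -0.72 and -0.46 in females without food and -0.78 in males without food. In larvae it was at 0.76, 1.07, 1.39, 0.86 and 0.58 from 52 to 100 h. Galk was thus below the control in each adult group and above it at each larval age, as AGBE and Glys were.

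The alpha-glucosidase gene tobi, a target of insulin signalling from the brain, was at -0.63 and -0.95 in females without food and -1.07 in males without food. On sugar it was at -1.14 and -1.47 in females and -1.13 and -1.93 in males. Males on sugar had CG9485 of the glycogen handling list at -1.16 and -1.73, and Pgi, which interconverts glucose and fructose 6-phosphate, at -1.28 and -1.23. Hex-C, a hexokinase gene, was at -0.66 and -1.05 in the same sugar-fed males, and at 1.48 in larvae of 64 h and -1.21 in larvae of 100 h. Pgi had no value after 24 h of starvation in either sex.

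In the glycogen handling list the female ratio was above the male ratio by a median of 0.42 in starvation and 0.43 and 0.96 on sugar. Gbs-76A, a glycogen-binding subunit of protein phosphatase 1, was at 1.33 and 1.16 in females without food and at 0.23 in males without food. On sugar it was at 0.83 and 0.94 in females and at 0.41 and -0.15 in males. Gyg, glycogenin, which primes the glycogen particle, was at 0.56 and 1.11 in females without food and 0.60 and 1.05 in sugar-fed females, and at 0.19 in males without food and 0.15 and 0.06 in sugar-fed males. Its clones lay at 0.62 and 1.60 in females without food at 48 h, and it overlaps CG44245, so its value is uncertain. Galk, tobi and CG9485 also overlap another gene each (CG13314, rha and CG33655).

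AkhR, the receptor of the adipokinetic hormone that mobilises stores in the fat body, was at 0.49 and 1.03 in females without food and 0.66 and 1.28 in sugar-fed females. Males were at 0.02 in starvation and at 0.59 and 0.65 on sugar. CG5171 of the trehalose list was 2-fold higher at 100 h (1.23). The other genes of the trehalose list stayed less than 2-fold from the control in all groups, as the medians over clones of Treh and Tret1-1 did. Among the 2 highest or lowest related genes of a group, InR, the insulin receptor, and the insulin-like peptide gene Ilp2 stood at 0.51 and 0.43 in males without food. InR was at 0.68 and 0.71 in females without food, 0.61 and 0.82 in sugar-fed females and 0.19 and 0.21 in sugar-fed males. Ilp2 was at -0.49 and 0.55 in females without food, -0.13 and 0.33 in sugar-fed females and -0.02 and 0.01 in sugar-fed males. CG7766 was at 0.83 and 0.74 in females without food and on sugar at 24 h, and the transporter gene sut3 was at 0.54 in sugar-fed males at 48 h. The low ends in larvae were CG9485 (-0.30) and Ilp2 (-0.26) at 52 h, Glut1 (-0.41) and Hex-t2 (-0.40) at 64 h, CG5177 (-0.66) and PhKgamma (-0.48) at 76 h, and sgl (-0.44) and G6P (-0.42) at 88 h. At 100 h they were Hex-C (-1.21) and Ilp2 (-0.57), and Hex-C is the only one of these larval values 2-fold from the control.

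**Figure D5:**
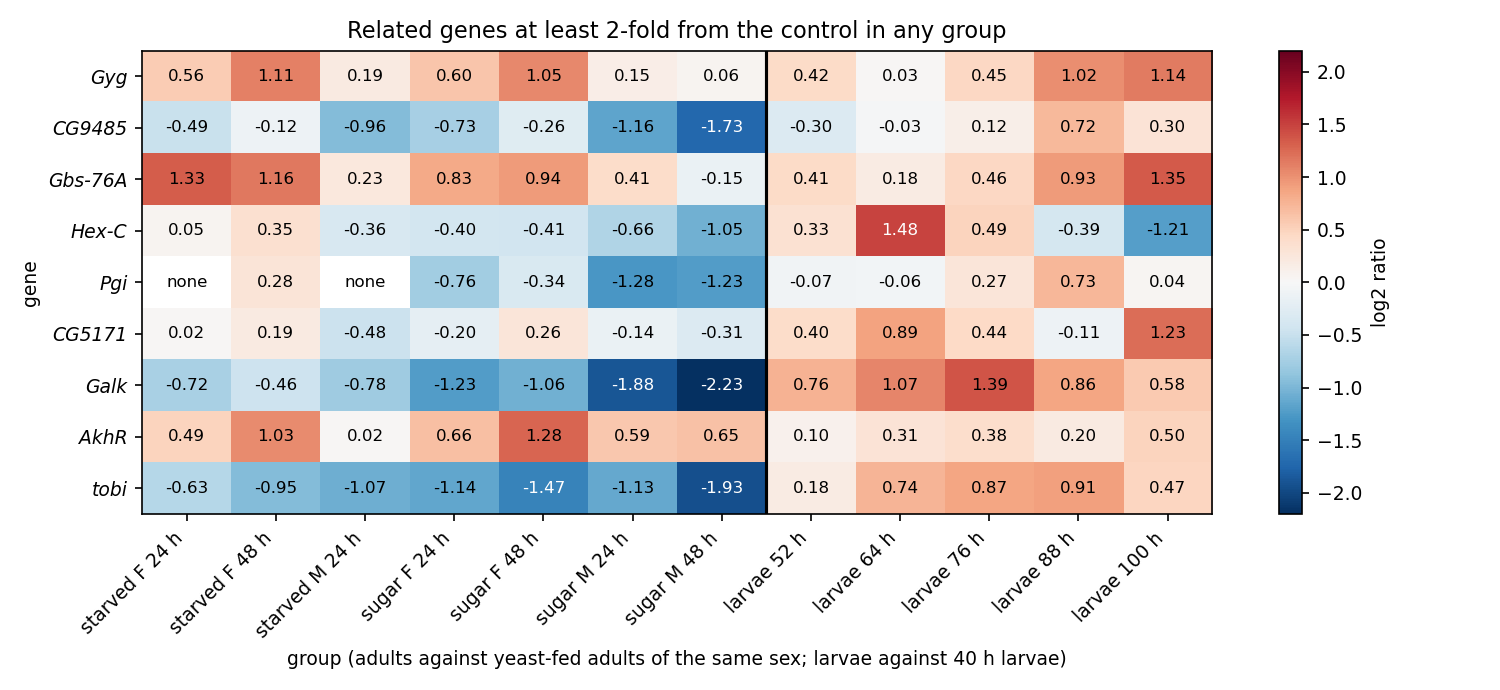
Log2 ratios of the 9 related genes that were at least 2-fold from the control in any group (rows) in the 12 groups (columns), adults left of the line and larvae right of it; "none" marks a missing value. Galk and tobi are low in sugar-fed males at 48 h, at -2.23 and -1.93. AkhR and Gyg are above the control in all 12 groups, and Gbs-76A in all but sugar-fed males at 48 h (-0.15).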

How the data were processed

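Total RNA of whichever 2 conditions a group compares was put on a spotted 2-colour array, and each array was scanned 3 times, per the labels. Per the labels, the authors normalised and merged both spot copies and all repeat arrays, and within each of the 12 groups the columns were identical. The deposited values are log2 ratios: 2 raised to their size had 6 decimals (within 0.05 of the last) in 99.995% of 130461 distinct values, against 10% for base e. How background, centring and scans were handled is not given in the sources used here. Flags and single intensities were not used here, and the number of arrays limits precision.

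Of 12094 clones 10148 had 1 gene symbol, 1945 none and 1 several. They were named through the platform annotation, 9814 by gene identifier, 87 by accession and 247 by symbol, with RefSeq symbols of the assembly Release 6 plus ISO1 MT. GlyP is spelled Glyp there. A gene is the median of its clones. A test across arrays (limma) had been planned if arrays carried their own values; they did not, so values are described and called at 2-fold. The members and lists were chosen with earlier results of these data known. Named were the 8 members, related genes past 2-fold or among the 2 highest or lowest of a group, the nearest 3 genes by r for each member, and Lsp2 and Fbp2; overlapping genes were added later, whatever their values. Counting was tested on simulated data. Python 3.11.15, numpy 2.4.6, pandas 2.3.3 and matplotlib 3.10.9 were used.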

Additional observations from a re-analysis of the deposited data

Results flagged for a closer look

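In 3 cases females and males stood on opposite sides of the yeast-fed control under the same treatment, further apart than the clone yardstick. Tps1 differed by 1.04 in starvation at 24 h (0.70 in females and -0.34 in males) and by 1.29 on sugar at 48 h (1.08 in females and -0.21 in males). Treh differed by 0.85 on sugar at 48 h (0.16 in females and -0.69 in males), where 1 of its 3 clones was at 0.16 in females and -0.02 in males. Each side is 1 merged value, so these differences were not tested. The median female minus male value of the muscle genes was 0.49 without food and 1.02 on sugar at 48 h. In the same comparisons it was 0.65 and 1.10 for the gut enzyme genes and 0.21 and 0.21 for the fat body genes. For the eggshell and yolk genes it was -2.16 and -2.92. The part of these tissues was not tested.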

How the results depend on the processing

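Taking the mean over clones, centring each group on its median or using the platform's own symbols left all medians and differences over the members within the clone yardstick and all counts at 2-fold within 1.5 times. The fold that counts as called matters. At 1.5-fold, 4 adult values of the members were higher and 20 lower, and 14 larval values were higher and 1 lower. At 3-fold, 0 adult values were higher and 1 lower, and 0 larval values were higher. The share of all genes past 1.5-fold or 3-fold was not counted. These counts thus do not tell whether the members differ from all genes at those folds. Of the 96 member values, 2 moved beyond the yardstick under the highest clone, Treh in males on sugar at 24 h (0.17) and 48 h (-0.02), and none under the lowest clone. Genes with 1 clone, all but Treh and Tret1-1, cannot move under any choice or mean of clones. For Tret1-1 the mean of its 2 clones equals their median. Each of its clones was compared with that median, so the 1.25 between them at 100 h counted as no move. The lack of movement was thus largely fixed in advance. Leaving out single arrays was not run, since all arrays of a group hold 1 merged value. No paired analysis was possible because the arrays carry no values of their own. Spot brightness, which sets the precision of a ratio, was not used here. Of the females starved for 48 h, 2 of 5 arrays have the same array number.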
